A study of Rattus norvegicus with 15 samples.

Results

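Skeletal muscle genes were followed through the RNA of rat femurs. The set held 10 genes chosen by name: Acta1, Ckm, Myh1, Myh2, Myh4, Myh7, Tnnt3, Tnni2, Actn3 and Mb. Of these, 9 were matched by gene name among the 30454 genes of the files. Myh1, the myosin heavy chain of fast type IIX fibres, was not matched and is not analysed here. All 9 had a mean level of at least 1 FPKM (fragments per kilobase of gene, scaled to library size) over the 15 libraries and were tested with 14416 genes in all. Myh2 and Myh7 reached that mean through 1 library, P 2, without which their means were 0.286 and 0.487 FPKM.

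Female rats of the strain labelled SD, 8 weeks old at the start, had a bilateral ovariectomy or a sham operation that removed fat near the ovaries. After 6 weeks of recovery they were treated for 8 weeks, and the femurs were taken. J rats were ovariectomized and received Juglans regia L. (walnut) extract by gavage at 1.6 g/kg per day. P rats were ovariectomized and received Psoralea corylifolia Linn. extract at 2.4 g/kg per day. PJ rats were ovariectomized and received a combined extract of both at 4.0 g/kg per day. OVX rats were ovariectomized and received saline, and saline is also the labelled treatment of Sham rats. Each group had 3 libraries, named here by group and number. The labels do not say whether a library is 1 animal, how much marrow a femur kept, or how soft tissue was removed. The p-values below therefore cover only the variation among libraries, which may be technical.

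Skeletal muscle is not part of bone, but it inserts on the femur through tendon. Its fibres contract when myosin heavy chains pull on actin filaments, and troponin on the actin filament releases this movement when calcium rises. Fast fibres use Myh1, Myh2 or Myh4 with fast troponins, while slow fibres use Myh7 with slow troponins and hold much myoglobin for oxidative work. In bulk RNA, fewer muscle fibres and less RNA per fibre cannot be told apart.

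Promoter windows are shown for 4 members, because Acta1, Myh2, Myh4 and Mb stand for the shared, the fast oxidative, the fast glycolytic and the oxygen-binding parts of the programme described below. They come from RefSeq on build GRCr8, cover 250 bases before to 50 bases after the annotated start, and were found for 9 of the 10 genes, Tnnt3 being the exception. Capitals mark matches on either strand to TATAAA, to the CArG box of serum response factor and to the MEF2 site. In Myh4 the MEF2 match overlaps a TATAAA match read on the other strand.
Acta1 (GRCr8 chr19:68784145-68784444, minus strand): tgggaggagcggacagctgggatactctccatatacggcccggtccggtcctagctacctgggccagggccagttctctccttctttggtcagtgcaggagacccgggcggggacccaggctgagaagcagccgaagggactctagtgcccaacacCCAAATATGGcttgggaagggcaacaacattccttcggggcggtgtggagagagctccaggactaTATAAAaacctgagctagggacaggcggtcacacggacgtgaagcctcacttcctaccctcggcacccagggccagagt
Myh2 (GRCr8 chr10:52355489-52355788, plus strand): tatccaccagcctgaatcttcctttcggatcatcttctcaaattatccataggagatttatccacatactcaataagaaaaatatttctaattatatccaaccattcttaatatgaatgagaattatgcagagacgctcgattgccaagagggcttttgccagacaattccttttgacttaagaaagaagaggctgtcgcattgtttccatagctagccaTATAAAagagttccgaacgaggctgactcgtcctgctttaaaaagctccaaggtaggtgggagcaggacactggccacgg
Myh4 (GRCr8 chr10:52421898-52422197, plus strand): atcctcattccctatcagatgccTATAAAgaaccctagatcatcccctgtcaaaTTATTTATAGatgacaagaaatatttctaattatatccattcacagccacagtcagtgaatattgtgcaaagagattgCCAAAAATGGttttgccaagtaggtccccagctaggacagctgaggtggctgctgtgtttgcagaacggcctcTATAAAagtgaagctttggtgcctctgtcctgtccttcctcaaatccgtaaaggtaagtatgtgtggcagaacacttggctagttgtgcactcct
Mb (GRCr8 chr7:110647693-110647992, minus strand): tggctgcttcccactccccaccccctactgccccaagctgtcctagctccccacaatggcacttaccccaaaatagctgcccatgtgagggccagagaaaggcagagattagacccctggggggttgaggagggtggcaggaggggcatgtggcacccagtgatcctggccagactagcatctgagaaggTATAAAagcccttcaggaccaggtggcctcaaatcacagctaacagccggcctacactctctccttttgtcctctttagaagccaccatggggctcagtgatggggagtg
TATAAA was present in 6 of the 9 windows, against 14.2% of 33469 RefSeq windows of the same length. A CArG box was present in 2 windows (Acta1 and Myh4), against 1.64% of all windows, and a MEF2 site in 2 (Myh1 and Myh4), against 1.87%. The E-box CANNTG, which myogenic factors and many others bind, was present in 6 windows, against 72.1% of all. These are letter matches and show no binding.

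Depth recovered from the smallest steps in the values was 34400000 to 61000000 reads per library, rounded, which may be read ends. Mitochondrial genes held 11.2% to 35.9% of a library's summed FPKM, with the highest share in P 2. Osteoblast markers, which define bone tissue, summed to 539 to 12850 FPKM. The 9 muscle genes together made up between 0.00117% and 0.192% of a library's FPKM.

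The summed FPKM of the 9 genes varied widely between libraries of the same group, except in PJ. It was 29.6, 107.9 and 8.75 FPKM in J 1, J 2 and J 3, and 47.9, 1000.0 and 8.68 FPKM in P 1, P 2 and P 3. It was 9.45, 9.88 and 10.6 FPKM in the PJ libraries, 5.83, 5.29 and 76.7 FPKM in OVX, and 277.1, 189.2 and 22.1 FPKM in Sham. P 2 was highest of the 15 libraries, and each of J, P, OVX and Sham held at least 1 library that stood apart from its others. P 2 had the highest value of 7 of the 9 genes, while Sham 2 had the highest Myh4 and Sham 1 the highest Actn3. The sums of the 3 PJ libraries lay close together and low, but most of each was Tnnt3, at 7.93, 7.71 and 9.13 FPKM. Tnnt3 also led the sums of J 3, P 3, OVX 1, OVX 2 and Sham 3. Within PJ, Ckm differed 5.15-fold, Tnni2 4.84-fold and Acta1 2.07-fold, against 1.185-fold for Tnnt3.

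**Figure D1:**
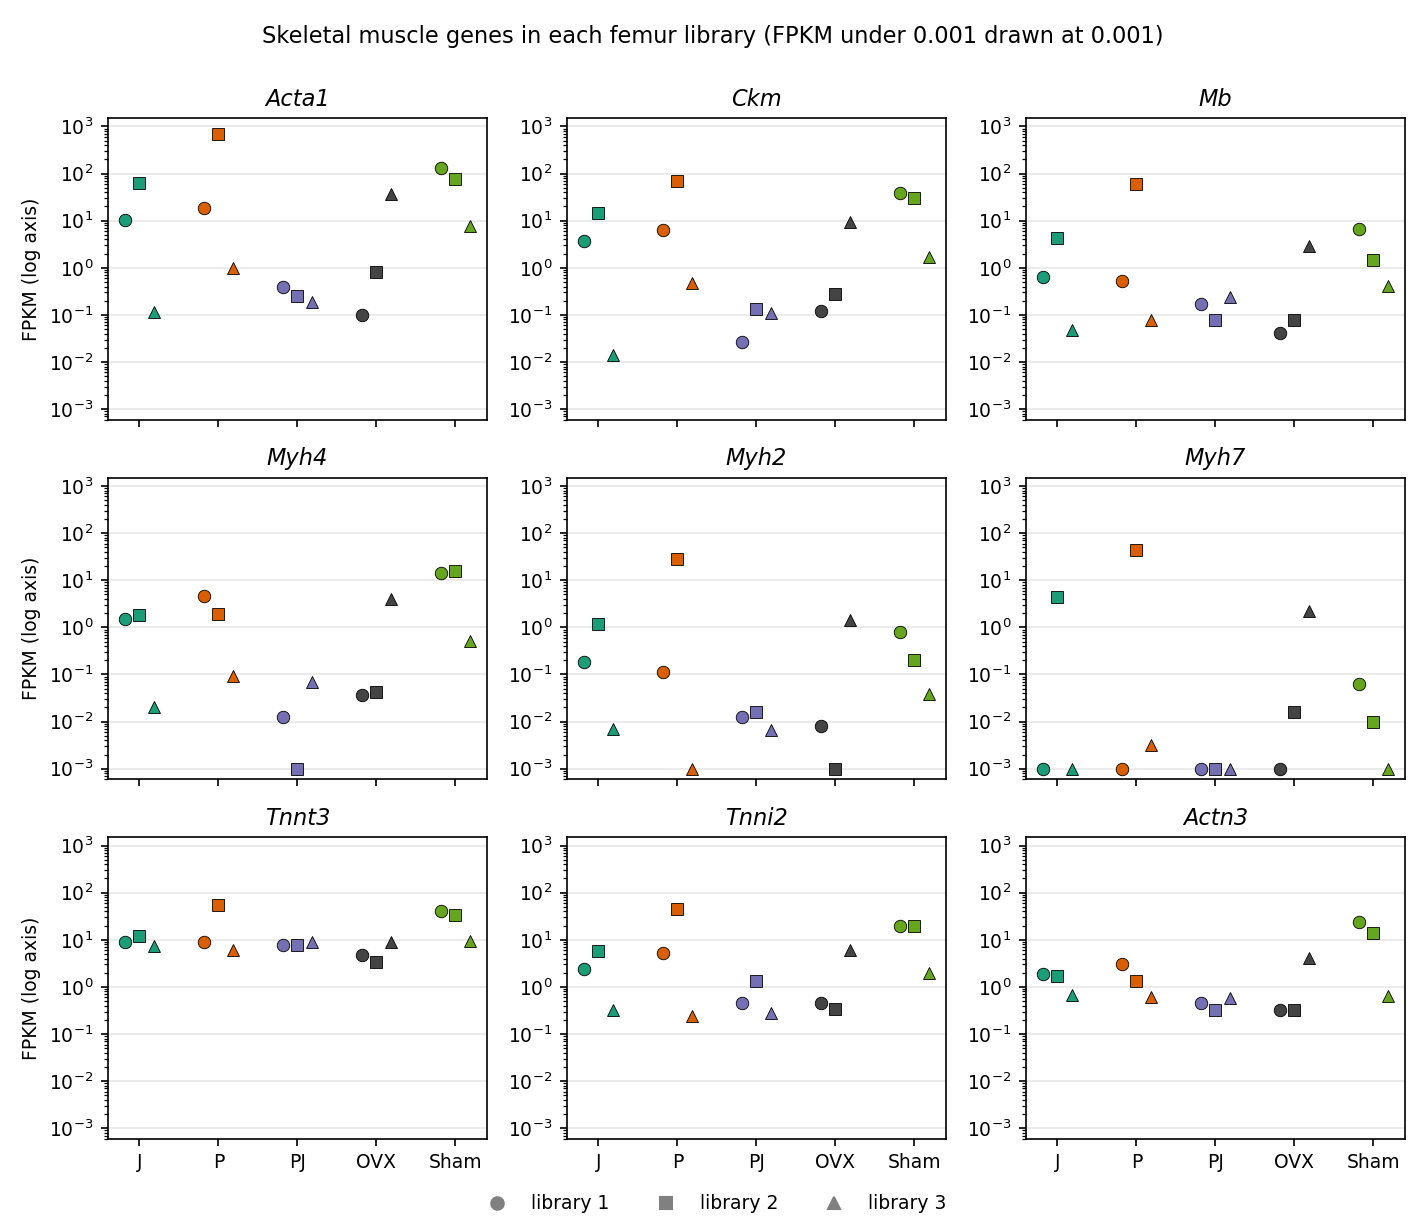
FPKM on a log axis of 9 skeletal muscle genes in the 15 femur libraries, by group (J, P, PJ, OVX, Sham), each point 1 library and its shape the library number. Values under 0.001 are drawn at 0.001. Library P 2 is the highest point for 7 genes, while for Myh4 and Actn3 the highest points are Sham libraries.

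Acta1, the skeletal actin of the thin filament, had the highest FPKM of the members in every library with a summed level over 25 FPKM. Acta1 stood at 10.2, 61.6 and 0.114 FPKM in J, at 18.9, 695.3 and 0.968 in P, at 0.394, 0.248 and 0.191 in PJ, at 0.1015, 0.804 and 37.4 in OVX, and at 132.1, 75.6 and 7.53 in Sham (libraries 1, 2 and 3 of each group in that order, as in all such lists below). The values of 3 libraries of a group differed up to 718-fold in P and 17.5-fold in Sham, but 2.07-fold in PJ. Ckm, the muscle creatine kinase that buffers ATP, stood at 3.70, 14.8 and 0.0144 FPKM in J, at 6.35, 69.0 and 0.467 in P, at 0.0264, 0.136 and 0.110 in PJ, at 0.119, 0.275 and 9.39 in OVX, and at 38.2, 30.3 and 1.73 in Sham. Both genes were low in J 3, all PJ libraries, OVX 1 and OVX 2, and high in P 2, J 2, OVX 3, Sham 1 and Sham 2. Acta1 and Ckm ran in parallel over the 15 libraries (Pearson r 0.99, Spearman rho 0.96, and r 0.99 without the 2 libraries farthest from the Acta1 median, all on log2(FPKM + 1)). For both genes PJ lay below every P and every Sham library, and the other pairs of groups overlapped.

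The myosin heavy chains did not follow a single order of libraries. Myh4, the fast glycolytic type IIB myosin, stood at 1.53, 1.87 and 0.0207 FPKM in J, at 4.68, 1.96 and 0.0926 in P, at 0.0127, 0 and 0.0689 in PJ, at 0.0367, 0.0426 and 3.93 in OVX, and at 14.0, 15.3 and 0.511 in Sham. Sham 1 and Sham 2 were the highest libraries, and P 2 lay below P 1 and OVX 3. Myh2, the fast oxidative type IIA myosin, stood at 0.183, 1.15 and 0.00688 FPKM in J, at 0.112, 28.0 and 0 in P, at 0.0126, 0.0163 and 0.00655 in PJ, at 0.00814, 0 and 1.46 in OVX, and at 0.810, 0.205 and 0.0386 in Sham. P 2 exceeded the next library, OVX 3, 19.2-fold. Myh7, the slow type I myosin that the heart also uses, stood at 0, 4.47 and 0 FPKM in J, at 0, 44.2 and 0.00325 in P, at 0 in all 3 PJ libraries, at 0, 0.0158 and 2.26 in OVX, and at 0.0617, 0.00974 and 0 in Sham. It was listed at 0 in 8 libraries, where a count of 0 allows up to 0.00830 to 0.0147 FPKM depending on the library, for counting error only. P 2, J 2 and OVX 3 were the 3 libraries with more than 0.1 FPKM of it.

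In P 2, Myh7 made up 59.6% of the summed FPKM of Myh2, Myh4 and Myh7, Myh2 37.8% and Myh4 2.65%. In J 2 the FPKM shares were 59.6% Myh7 and 25.0% Myh4, and in OVX 3 they were 29.5% Myh7 and 51.4% Myh4. By contrast, Myh4 made up 89.3% in J 1, 97.7% in P 1, 94.1% in Sham 1 and 98.6% in Sham 2. Libraries of the same group thus differed in make-up: P 1 held almost pure Myh4, and P 2 little of it. The sum reached 10 FPKM, the minimum set for giving a share in the main reading, in P 2, Sham 1 and Sham 2, and 1 FPKM in 7 libraries, and no pair of groups had all 6 libraries that the test was set to need. At 1 FPKM, J, P and Sham had 2 libraries each, OVX 1 and PJ 0, and 2 libraries against 2 cannot give an exact two-sided permutation p under 0.333. FPKM is per gene length, but the length recovered from the values was 12070 bases for Myh4, against 6041 for Myh2 and 5923 for Myh7, which code for myosins of similar size, so the FPKM share of Myh4 is low relative to its reads. Counted as reads instead, an alternative chosen after the data were seen, Myh7 made up 47.2% and Myh4 40.3% in J 2, 57.6% and 5.21% in P 2, and 19.2% and 68.1% in OVX 3. By reads, Myh4 made up 94.4% in J 1, 98.8% in P 1, 97.0% in Sham 1 and 99.3% in Sham 2. Myh1 is missing from the sum, and the fast genes Myh1, Myh2 and Myh4 are near-identical neighbours on chromosome 10 in RefSeq GRCr8, so reads may be split among them and each value is uncertain. The same holds for Myh7 and its neighbour Myh6, which stood at 0.538 FPKM in P 2. In Sham 1 and Sham 2, Myh6 stood at 0.631 and 0.969 FPKM, above Myh7 at 0.0617 and 0.00974 FPKM.

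**Figure D2:**
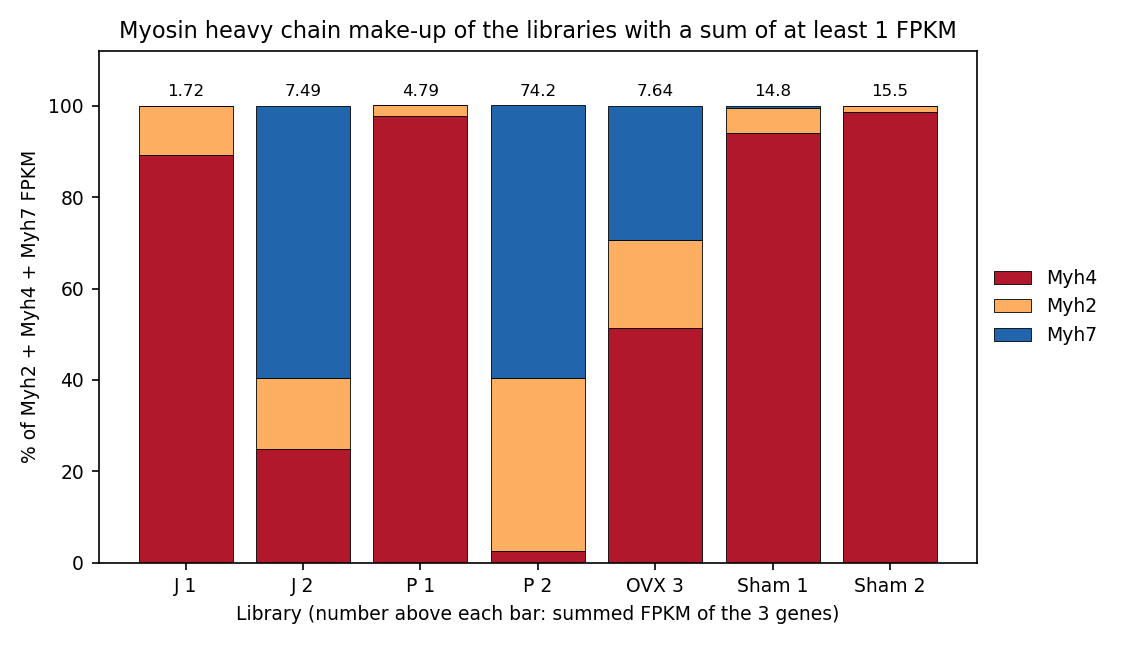
Share in percent of Myh4, Myh2 and Myh7 in their summed FPKM, in the 7 libraries whose sum is at least 1 FPKM, with the sum printed above each bar. Myh7 makes up 59.6% in P 2 and in J 2, where its share of reads is 57.6% and 47.2%, and Myh4 makes up 89.3% or more in J 1, P 1, Sham 1 and Sham 2.

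Actn3, the alpha-actinin of fast fibre Z-discs, was nearest to Myh4 among the members, while Mb, the oxygen-binding myoglobin, was near several of them. Actn3 stood at 1.90, 1.69 and 0.674 FPKM in J, at 3.06, 1.35 and 0.625 in P, at 0.459, 0.326 and 0.573 in PJ, at 0.317, 0.318 and 4.04 in OVX, and at 23.6, 13.7 and 0.650 in Sham. P 2, the library with most Acta1, had 0.00193 of Actn3 per unit of Acta1. The other libraries with over 7 FPKM of Acta1 differed among themselves, with 0.187 in J 1, 0.0274 in J 2, 0.162 in P 1, 0.108 in OVX 3, 0.178 in Sham 1, 0.182 in Sham 2 and 0.0863 in Sham 3. Over the libraries, Actn3 and Myh4 had a Pearson r of 0.97 (rho 0.88, r 0.96 without the 2 farthest libraries), and Actn3 and Myh7 an r of 0.02 (rho 0.42). Mb stood at 0.634, 4.33 and 0.0483 FPKM in J, at 0.533, 60.2 and 0.0767 in P, at 0.168, 0.0761 and 0.236 in PJ, at 0.0408, 0.0775 and 2.93 in OVX, and at 6.73, 1.48 and 0.406 in Sham. P 2 exceeded Sham 1, the next library, 8.95-fold. Mb and Myh2 had an r of 0.95 (rho 0.86), and Mb and Acta1 an r of 0.89 (rho 0.94). Mb and Myh7 had an r of 0.89 (rho 0.69). Without the 2 farthest libraries these r were 0.95 for Myh2, 0.88 for Acta1 and 0.48 for Myh7. By rank Mb was thus closer to Acta1 than to Myh2. These correlations describe 15 libraries that share their groups and carry no test.

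Both fast troponins were high in P 2, Sham 1 and Sham 2, but Tnnt3 kept a level in the libraries where Tnni2 was low. Tnni2, the fast inhibitory troponin I, stood at 2.45, 5.74 and 0.326 FPKM in J, at 5.21, 44.1 and 0.247 in P, at 0.449, 1.37 and 0.282 in PJ, at 0.456, 0.333 and 6.14 in OVX, and at 19.9, 19.3 and 2.01 in Sham. Tnnt3, the fast troponin T that ties the complex to tropomyosin, stood at 9.01, 12.3 and 7.54 FPKM in J, at 9.05, 55.9 and 6.2 in P, at 7.93, 7.71 and 9.13 in PJ, at 4.75, 3.43 and 9.16 in OVX, and at 41.7, 33.3 and 9.23 in Sham. No library had less than 3.4 FPKM of Tnnt3, and Tnnt3 had the highest FPKM of the members in the 8 libraries where Acta1 was under 8 FPKM. The ratio of Tnnt3 to Tnni2 was 1.27 to 2.13 in J 2, P 1, P 2, OVX 3, Sham 1 and Sham 2, 3.68 in J 1 and 4.58 in Sham 3. It was 5.63 to 32.4 in J 3, P 3, the 3 PJ libraries, OVX 1 and OVX 2. These ratios depend on the lengths recovered from the values, 2871 bases for Tnnt3 and 1402 for Tnni2, and ratios of reads would differ. Tnnt3 overlaps no other gene in RefSeq GRCr8, while Tnni2, Mb and Myh7 overlap annotated genes there. The reads were counted on another build, mRatBN7.2, and no source used here says whether strand was used in counting. Why Tnnt3 kept a level was not tested.

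**Figure D3:**
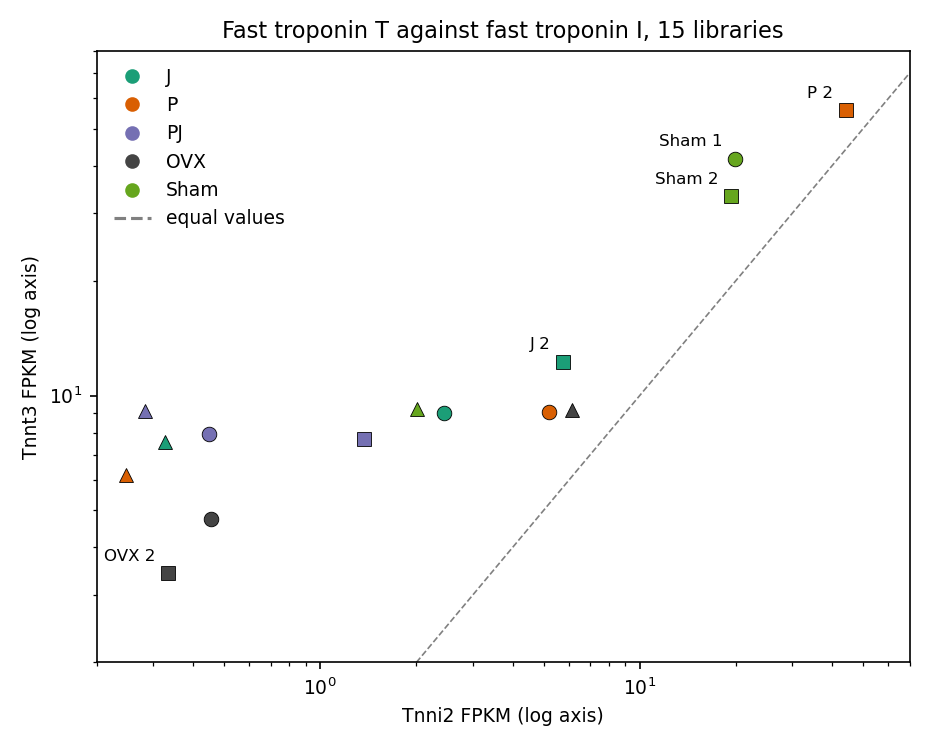
Tnnt3 against Tnni2 in FPKM, both on log axes, with 1 point per library coloured by group and a dashed line where both are equal. Tnnt3 levels off between 3.4 and 9.2 FPKM in the libraries where Tnni2 is under 2.1 FPKM.

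OVX against Sham addresses the effect of ovariectomy. Of the 9 genes, 1 fell in OVX and none rose, where 28.9% of all tested genes fell and 25.3% rose (limma, adjusted p under 0.05). Of the 9, 3 had an unadjusted p under 0.05, all with lower values in OVX. The gene that fell was Tnnt3, with 5.78 ± 3.00 FPKM in OVX and 28.1 ± 16.9 FPKM in Sham (SD, n = 3 each). Its log2 fold change was -1.95 ± 0.68 (SE) with a limma adjusted p of 0.027. The highest OVX library, at 9.16 FPKM, lay just under the lowest Sham library, at 9.23 FPKM, and 34.5% of all tested genes had every OVX library below every Sham library. The call was lost without Sham 1, Sham 2, OVX 1 or OVX 2, with adjusted p between 0.070 and 0.11. Actn3 had a log2 fold change of -2.03 ± 0.81 and an adjusted p of 0.0501, and Myh4 of -2.04 ± 0.90 and 0.072. For Acta1 the values were -3.38 ± 2.02 and 0.18. For Myh2 and Myh7 the differences were 0.04 ± 0.97 and 0.54 ± 1.18, and OVX 3 held the highest value of both groups for each. The median log2 fold change was -2.03 over the 9 genes and -0.04 over all tested genes. Without Sham 3, 5 members were called lower, beside 3785 of all 14416 tested genes. Without OVX 3, 3 members were, beside 4002 of all tested genes.

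None of the 9 genes passed the test in J, P or PJ against OVX, the comparisons that address the extracts. The limma test called 3.27% of all genes higher and 2.79% lower in J, 24.2% and 15% in P, and 29.8% and 14.6% in PJ. No member had an unadjusted p under 0.05 in any of the 3 comparisons. The 3 comparisons share the OVX libraries. Acta1 differed by 1.12 ± 2.02 (log2 fold change and SE) in J, 2.83 ± 2.02 in P and -1.74 ± 2.02 in PJ against OVX. Tnnt3 differed by 0.71 ± 0.68 in J, 1.33 ± 0.68 in P and 0.54 ± 0.68 in PJ against OVX. The medians over the members were 0.35 in J, 1.33 in P and -0.55 in PJ, beside 0.11, 0.12 and 0.22 over all tested genes. With median-ratio scaling, the share of higher genes among all genes called was 30.7% in J, 45.2% in P and 45.7% in PJ, against 54.0%, 61.7% and 67.1% with FPKM as deposited.

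For every member except Actn3, the difference of P from OVX was smaller or turned its sign without P 2, though only slightly smaller for Myh4. Without it, the log2 fold change of Acta1 was 0.56, against 2.83 with it, and that of Ckm was 0.42, against 1.89. For Tnni2 it was 0.21, against 1.55, and for Tnnt3 0.42, against 1.33. The sign turned for Mb, at -0.35 against 1.51, for Myh2, at -0.36 against 1.23, and for Myh7, at -0.57 against 1.26.

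**Figure D4:**
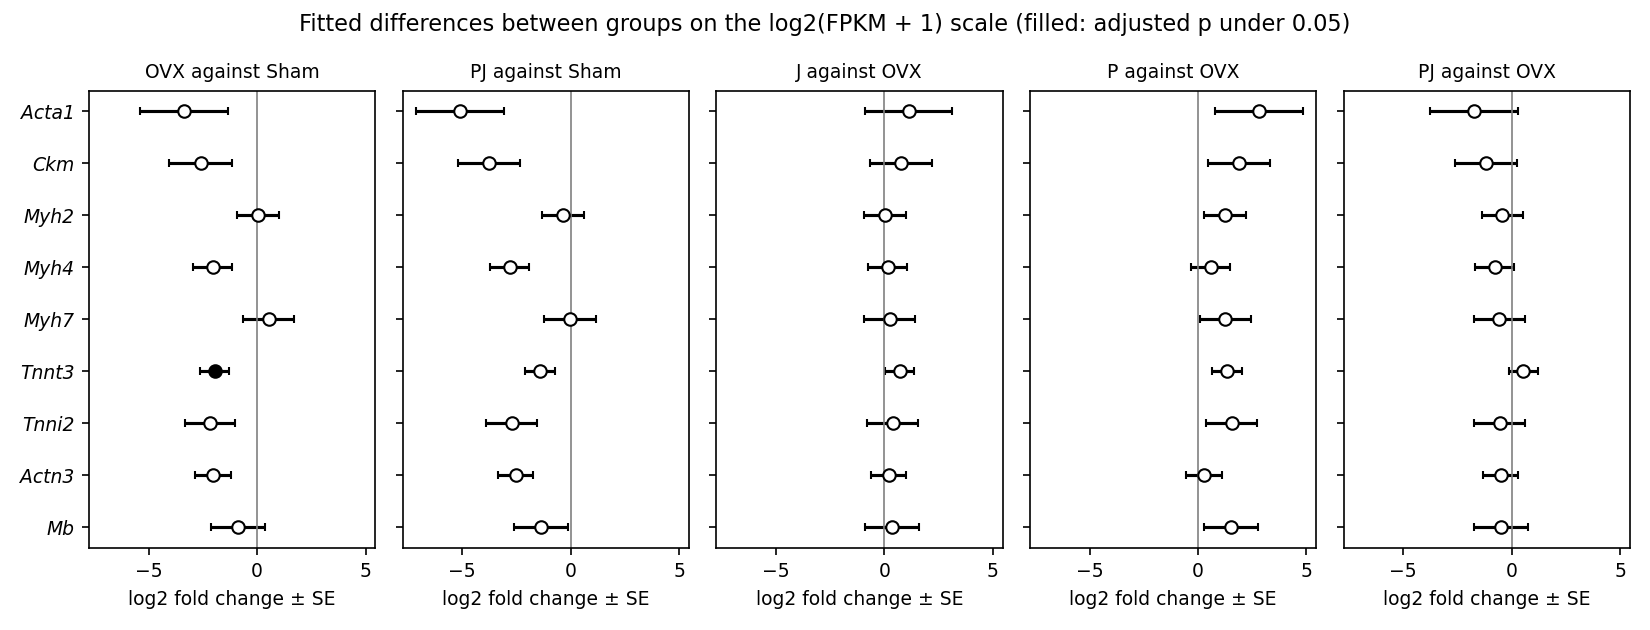
Log2 fold change with its standard error from limma on log2(FPKM + 1) for the 9 genes in 5 comparisons, with the first-named group over the second. The 1 filled point, Tnnt3 in OVX against Sham, has an adjusted p under 0.05.

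The extracts were also set against Sham, in comparisons chosen after the data were seen, which share the Sham libraries with OVX against Sham. In PJ, 8 of the 9 genes lay below Sham in every library, where 10.4% of all tested genes did. The exception was Myh7, at 0 in all PJ libraries and in Sham 3. Acta1 averaged 0.278 ± 0.105 FPKM in PJ and 71.7 ± 62.4 FPKM in Sham, and Ckm 0.0908 ± 0.0573 FPKM in PJ and 23.4 ± 19.2 FPKM in Sham (SD, n = 3 each). Myh4 averaged 0.0272 ± 0.0367 FPKM in PJ and 9.93 ± 8.19 FPKM in Sham. For Tnnt3 the gap was small, with 9.13 FPKM in the highest PJ library and 9.23 FPKM in the lowest Sham library. None of the 9 passed the limma test in PJ against Sham, where 3.48% of all genes were called lower and 7.72% higher, and 5 had an unadjusted p under 0.05. Actn3 was nearest, with a log2 fold change of -2.54 ± 0.81 and an adjusted p of 0.061, and Myh4 had -2.81 ± 0.90 and 0.061. No member passed in J against Sham (20.9% of genes lower, 23% higher, 1 member with an unadjusted p under 0.05) or in P against Sham (1.85% lower, 5.95% higher, 0 members). Without P 2 from the shared fit, 1 member was called lower in PJ and 1 in J against Sham. Over all 14416 tested genes, 811 and 3185 were then called lower. Without Sham 3, 3 members were called lower in PJ, 3 in J and 2 in P, beside 658, 2691 and 403 of all genes.

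Across all 5 groups, the limma F test called none of the 9 genes, where it called 50% of all tested genes, and none had an unadjusted p under 0.05. The smallest adjusted p was 0.12, for Actn3. Without Sham 3 the F test called 3 members, and without P 2 it called 1. Its counts over all genes without these libraries are not reported here. When the group means of each gene were put in order, the ranges of neighbouring groups overlapped in 34 of 36 pairs. The exceptions were Myh2, with PJ under Sham, and Actn3, with PJ under J. Sham had the highest mean of Tnnt3, Actn3 and Myh4, and P the highest mean of Acta1, Ckm, Tnni2, Mb, Myh2 and Myh7, with P 2 its highest library for each.

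Some other muscle genes showed the same contrast between libraries, and others did not. Of 75 genes in 7 further muscle lists, 42 were tested, and 11 fell and 4 rose in OVX against Sham, 1 rose in J, 10 rose and 2 fell in P, and 5 rose and 2 fell in PJ, each against OVX. As shares of the 42, 26.2% fell and 9.5% rose in OVX, beside 28.9% and 25.3% of all tested genes, and 23.8% rose in P, 11.9% in PJ and 2.4% in J against OVX, beside 24.2%, 29.8% and 3.27% of all. None of these shares was above that of all genes. In the slow fibre list, Tnnt1, the slow troponin T, reached 157.9 FPKM in P 2, against 2.68 in P 1 and 3.07 in P 3, and 11.0 in J 2 and 10.0 in OVX 3. Tnni1, the slow troponin I, stood at 81.5 FPKM in P 2, 5.59 in J 2 and 4.06 in OVX 3, and under 1.1 in the other libraries. Tnnc1, the troponin C of slow and heart muscle, rose in OVX, at 8.44, 8.53 and 14.3 FPKM, against 0.942, 1.16 and 1.37 FPKM in Sham, and so did Tpm3, a tropomyosin that many cells use, at 136.0, 142.8 and 130.5 FPKM in OVX, against 56.9, 66.8 and 74.1 FPKM in Sham. These 2 thus rose where OVX 1 and OVX 2 had almost no Acta1. The 11 slow fibre genes had a median log2 fold change of 0.07 in OVX against Sham, and 2 of them rose, beside 25.3% of all tested genes. That median says little about OVX and Sham. Without P 2, Tnni1, Myl2, Myoz2, Actn2, Csrp3 and Ankrd2 of this list would not have reached the mean of 1 FPKM needed for testing. Other lists held such genes too, among them Sln, and they count among the 42 tested.

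In the fast fibre list, Tnnc2, the fast troponin C, stood at 125.4 FPKM in P 2, 64.7 in Sham 1 and 71.6 in Sham 2, and Myl1, a fast myosin light chain, at 72.5, 29.96 and 26.5 in the same libraries. Tpm1, a tropomyosin of muscle and other cells, fell in OVX, at 42.6, 38.4 and 43.5 FPKM, against 61.2, 94.3 and 72.1 in Sham, and rose in P and PJ against OVX. Mybph, a myosin-binding protein, rose in OVX, at 3.37, 2.52 and 3.92 FPKM, against 0.667, 0.466 and 0.361 FPKM in Sham. Of the 6 genes tested, these were the 2 called in OVX against Sham, where 28.9% of all tested genes fell and 25.3% rose. In the calcium list, Atp2a1, the fast calcium pump, stood at 28.0 FPKM in P 2, 28.6 in Sham 1 and 19.8 in Sham 2, while Pvalb, the fast fibre calcium buffer parvalbumin, stood at 0.570 in P 2, 5.40 in P 1, 13.6 in Sham 1 and 7.74 in Sham 2. Pvalb thus shared with Actn3 and Myh4 that P 2 was not among its high libraries. Casq1, a calsequestrin that stores calcium, stood between 0.701 and 9.69 FPKM, and its relative Casq2 fell in OVX, at 0.152, 0.522 and 0.854 FPKM, against 4.58, 5.47 and 2.87 FPKM in Sham.

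Among the 7 muscle lists, the scaffold and turnover list had the most genes that fell in OVX against Sham, 5 of 8 tested, where 28.9% of all tested genes fell. Klhl40 and Trim63, which are among those that fell, would not have reached the mean of 1 FPKM without the Sham libraries. That count is thus set in part by the filter. Trim63 would not have reached the mean without the P libraries either. Des, the intermediate filament desmin, which smooth muscle also uses, stood at 0.0523, 0.624 and 1.74 FPKM in OVX, against 25.5, 29.9 and 7.14 FPKM in Sham. Fbxo32, the muscle ubiquitin ligase atrogin-1, stood at 1.21, 1.74 and 2.09 FPKM in OVX, against 6.84, 6.55 and 11.3 FPKM in Sham. In the same list 4 genes rose in P against OVX, Des, Ldb3, Trim63 and Fbxo32, where 24.2% of all tested genes rose. Ldb3, a Z-disc adaptor, stood at 2.43, 9.31 and 2.71 FPKM in P, against 0.274, 0.208 and 0.901 FPKM in OVX, so P 1 and P 3 exceeded OVX as well. Tcap, the titin cap, stood at 166.6 FPKM in P 2, 20.1 in Sham 1 and 0.501 to 12.2 in the others. In the energy list, Pygm, the muscle glycogen phosphorylase, fell in OVX, at 2.25, 3.12 and 5.41 FPKM, against 15.6, 13.2 and 6.81 FPKM in Sham. Eno3, Pgam2 and Pfkm, enzymes of glycolysis, stood at 8.98, 5.26 and 6.15 FPKM or more in all libraries.

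Among genes chosen after their values were seen, Pax7, the satellite cell factor, was listed at 0 in all 15 libraries, and Myod1, the myoblast factor, in 12. Sln, the sarcolipin of slow and atrial muscle, stood at 27.7 FPKM in P 2 and was listed at 0 in 13 libraries. Csrp3, a slow fibre Z-disc protein, stood at 40.8 FPKM in P 2, and Myl3 and Myl2, slow myosin light chains, at 64.8 and 38.2. The fetal myosins Myh3 and Myh8 stayed under 0.31 FPKM. Chrng, the fetal acetylcholine receptor subunit, was the 1 tested gene of the developmental list, at 9.64 to 15.6 FPKM in all libraries, with a log2 fold change of 0.52 in OVX against Sham, where it passed the test.

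Markers of tissues next to bone moved with part of these values. The 8 tendon and joint surface genes summed to 204, 2561 and 279 FPKM in P, 6.33, 15.0 and 7.79 FPKM in OVX and 7651, 7875 and 3744 FPKM in Sham. All 8 fell in OVX against Sham, where 28.9% of all tested genes fell. Tnmd among them would not have reached the mean of 1 FPKM without the Sham libraries, so the filter set its fall in part. They summed to 50.5 to 227 FPKM in J and 51.2 to 762 FPKM in PJ. Tnmd, a defining tendon gene, was listed at 0 in all OVX libraries, in J 1 and in PJ 3. The 12 cartilage genes summed to 35.2 to 166 FPKM in J, 81.0 to 2112 in P, 11.3 to 703 in PJ, 3.47 to 12.5 in OVX and 2280 to 4835 FPKM in Sham, again with P 2 highest in P, and up to 6 were listed at 0 in an OVX library. All 8 cartilage genes tested fell in OVX against Sham, beside the same 28.9% of all tested genes. The 8 smooth muscle genes summed to 55.7 to 113 FPKM in J, 60.03 to 348 in P, 83.8 to 171 in PJ, 19.5 to 52.8 in OVX and 244 to 919 FPKM in Sham. Of the 7 tested, 6 fell in OVX against Sham, again beside 28.9% of all tested genes. Cnn1, which is among those that fell, would not have reached the mean of 1 FPKM without the Sham libraries either. OVX 3, with 76.7 FPKM of the members, had 7.79 FPKM of tendon genes, and Sham 3, with 22.1 FPKM of the members, had 3744 FPKM of them. The 10 erythroid genes summed to 17350 to 21040 FPKM in J, 3265 to 9251 in P, 1293 to 5838 in PJ, 30780 to 41410 in OVX and 365 to 2237 FPKM in Sham. The 10 neutrophil genes summed to 9448 to 23200 FPKM in J, 3601 to 6985 in P, 1804 to 9209 in PJ, 20420 to 23850 in OVX and 285 to 645 FPKM in Sham. The part of these tissues in the muscle differences was not tested.

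**Figure D5:**
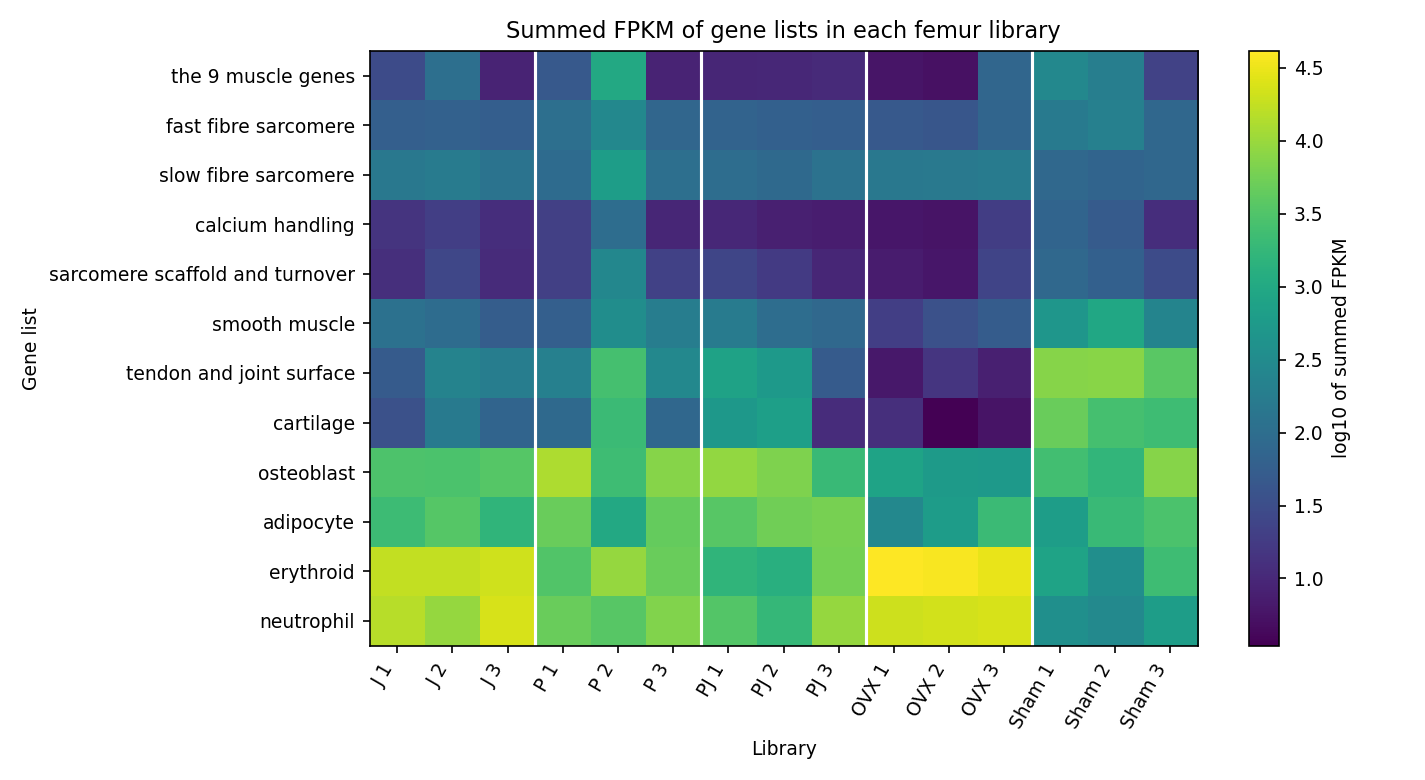
Log10 of the summed FPKM of 12 gene lists in each library, with lists down the page and libraries ordered J, P, PJ, OVX and Sham. The 9 muscle genes are brightest in P 2, Sham 1 and Sham 2, while the tendon and cartilage lists are bright in all 3 Sham libraries and in P 2.

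The genes outside the lists that were most like the mean of the fast members over the 15 libraries were Hjv (Pearson r 0.92 on log2(FPKM + 1), among 13384 genes ranked), Ankrd23 (0.92), LOC100912306 (0.88), H19 (0.85) and Pdlim3 (0.83). They were followed by Eif1 (0.83), Cacng1 (0.82), Tatdn1 (0.80), Cryab (0.80) and Ppm1j (0.80). Hjv, the hemojuvelin gene of liver and skeletal muscle, stood at 9.21 FPKM in P 2, 0.908 in OVX 3, 3.33 in Sham 1 and 1.53 in Sham 2, with a median of 0.275. Without the 2 libraries farthest from the median of the fast mean, r was 0.98 for Hjv, 0.91 for Ankrd23 and 0.58 for Ppm1j. Those most like Myh7 were LOC100912306 (0.89), Nrap (0.88), Apobec2 (0.84), Cryab (0.79) and Hjv (0.78). Cryab, a small heat shock protein of muscle and lens, stood at 107.4 FPKM in P 2 and 5.58 in OVX 3. Without P 2 and the other farthest library, these 5 values were 0.38, 0.28, 0.08, 0.20 and 0.24, so the likeness to Myh7 rests on those libraries.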

How the data were processed

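The authors deposited 1 table per library with 30454 genes. Per the submitters' processing notes, reads were handled with fastp 0.23.4, STAR 2.7.11a and featureCounts 2.0.6 on build mRatBN7.2, and the labels' protocols name TRIzol extraction and a TruSeq RNA kit. The deposited values are FPKM, as their dependence on gene length shows, although their column is headed as a count, and the column headed FPKM is empty. Members and lists were chosen with earlier results of these data known. Values were analysed as log2(FPKM + 1), which understates changes of low genes, for the 14416 genes whose mean FPKM reached 1. A model with 5 group means was fitted to all 15 libraries with limma 3.58.1 in R 4.3.3, with variances that follow mean expression and 10 residual degrees of freedom. P-values are two-sided and were adjusted after Benjamini and Hochberg over all genes tested, with a threshold of 0.05, and the fit was tested on simulated data. Named genes were the members, and per muscle list the 4 tested genes with the highest mean FPKM, of which 1 is not reported here. Other genes were chosen after their values were seen, except those most like the members. Alternatives were another pseudocount, filters and scalings, array weights, a replicate block and leaving out each library.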

Additional observations from a re-analysis of the deposited data

How the results depend on the processing

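Of 2204 recomputed values, 1985 were labelled the same. Fold changes were so labelled if they kept their direction and side of the threshold, called or not. Counts were if they stayed equal or close, and myosin shares if they stayed within counting error. Where others did not, the cause was not tested. Members called lower in OVX against Sham numbered 2 with TPM and 2 without mitochondrial and globin genes, 6 with array weights and 0 to 5 when 1 library was left out, against 1. The F test over the 5 groups called 6 with array weights and 0 to 3 with 1 library left out, against 0. Its counts over all genes in these settings are not reported here. In the comparisons with Sham added after the data were seen, the main count of lower members was 0. It was 5 in J, 3 in P and 6 in PJ with array weights. Array weights also called more of all genes lower, 3643 in J, 1808 in P and 1744 in PJ, against 3012, 267 and 502. The count of lower members was 1 in PJ when only those 2 groups were fitted, beside 116 of all genes. With 1 library left out it was 0 to 3 in J, 0 to 2 in P and 0 to 3 in PJ. Array weights gave P 2 a weight of 0.195 and PJ 1 a weight of 5.45. Myosin shares could be given for 3 libraries, for 7 at a minimum of 1 FPKM and for 1 at 50, and for 2 to 3 with 1 library left out.

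Signs of uncalled log2 fold changes turned as follows. Myh2 in OVX against Sham was -0.40 with a pseudocount of 0.1, -0.050 with TPM and -0.011 with array weights. Myh2 in J was -0.031 against OVX with array weights, and against Sham -0.007 with the pseudocount of 0.1 and -0.042 with array weights. With array weights Myh7 was -0.10 in J and -0.14 in P against OVX, and Mb was -0.80 in P against Sham. With 1 library left out, J against OVX ranged over -0.27 to 2.71 for Acta1, -0.13 to 0.84 for Actn3, -0.17 to 1.82 for Ckm, -0.33 to 0.98 for Mb, -0.31 to 0.45 for Myh2, -0.22 to 0.91 for Myh4, -0.57 to 0.81 for Myh7 and -0.17 to 1.17 for Tnni2. P against OVX ranged over -0.078 to 0.92 for Actn3, -0.35 to 2.56 for Mb, -0.36 to 2.07 for Myh2 and -0.57 to 2.18 for Myh7. PJ against OVX ranged over -0.83 to 0.14 for Actn3, -0.83 to 0.13 for Mb, -0.64 to 0.011 for Myh2 and -0.98 to 0.23 for Tnni2. OVX against Sham ranged over -0.39 to 0.27 for Myh2 and -0.022 to 0.83 for Myh7. J against Sham ranged over -1.20 to 0.16 for Mb, -0.27 to 0.29 for Myh2 and -0.033 to 1.19 for Myh7. P against Sham ranged over -2.83 to 1.41 for Acta1, -2.19 to 0.60 for Ckm, -1.22 to 1.69 for Mb, -0.32 to 2.11 for Myh2, -0.031 to 2.72 for Myh7 and -1.96 to 0.62 for Tnni2.

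The values showed no clear pairing of samples by library number. Of 30 pairs with the same number in different groups, 9 had deviations from the group means that correlated over 0.1 (-0.41 to 0.49). Of 15 libraries, 7 correlated best with their own number. Such correlations cannot show whether samples were paired by design. With the replicate number as a block, the count of members called was 1 in OVX against Sham and 0 in the other comparisons, as without it. Median-ratio scaling moved the median over all tested genes to -0.05 in P and -0.03 in PJ against OVX, beside 0.12 and 0.22. TPM moved it to -0.10 in J against Sham, beside 0.05, to 0.34 in PJ against OVX, beside 0.22, and to -0.14 in OVX against Sham, beside -0.04.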
